A study of Mus musculus with 16 samples.

Results

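The 2 libraries of old passage E14 mESCs (OP-mESCs) were compared with the 2 libraries of E14 mESCs that carry a control shRNA (shCtrl mESCs), which are 4 of the 16 libraries of the series. The libraries were chosen by their labelled titles and not by any measured value. All 4 come from E14, a mouse embryonic stem cell line of 129/Ola origin, kept undifferentiated in serum with LIF, and no differentiation was induced in either group. OP-mESCs were cultured for many passages and carry no construct that the labels name. The shRNA cells derive from young passage cells in the study, by transduction with pLKO-based constructs, and the control shRNA is the vector control of a β-catenin silencing experiment. The comparison therefore asks how much methylation OP-mESCs lack against a reference other than the untransduced young passage libraries (YP-mESCs). Culture age, transduction, selection and library batch all differ between the groups, or may differ, and cannot be told apart here. The labels give no batch or date. The study calls its RRBS replicates biological, but the labels do not say that they came from separate cultures, so p-values measure the spread between these libraries, which may be technical.

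DNA methylation in mammals is found mostly at CpG dinucleotides, where DNMT1 copies it onto the new strand after replication. CpG islands at most gene starts are kept unmethylated, whereas gene bodies, intergenic DNA and the promoters of many germline genes are methylated. Imprinting control regions (ICRs) are methylated on the allele from 1 parent only, so that a normal ICR reads at intermediate levels. ZFP57, a zinc finger protein that recognises the methylated hexamer TGCCGC, protects ICR methylation in mESCs. The germline ICRs of H19, Rasgrf1 and Meg3 are methylated on the paternal allele, and most others on the maternal one.

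Reduced representation bisulfite sequencing (RRBS) reads cytosines of CpG-rich DNA after bisulfite treatment, and the methylation level of a CpG is the percentage of its reads that kept a cytosine. OP-mESC replicates 1 and 2 held 20102291 and 18919219 reads on CpGs, and shCtrl replicates 1 and 2 held 33114520 and 33296468. OP-mESC replicate 2 covered 413282 CpGs, the fewest, against 736979 in OP-mESC replicate 1 and 1009899 and 1152402 in the shCtrl libraries. After the strands of each CpG were summed, 368883 CpGs had at least 10 reads in all 4 libraries. They are 38.5% of the CpGs read in both shCtrl libraries, so most CpGs of the reference were not compared. Neighbouring CpGs can be counted from the same read. The mitochondrial genome, which is essentially unmethylated, read at 0.374% and 0.361% in OP-mESCs and at 0.319% and 0.29% in shCtrl mESCs, so the level of unconverted cytosine there was not higher in the shCtrl libraries.

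DNA from 6 of the 10 regions with the most changed CpGs is shown first, as the mm9 reference of the forward strand, 5′ to 3′, with every compared CpG in capitals. The first stretch, chr5:144015432-144015581, lies in a coding exon of Zfp316, a zinc finger gene, and belongs to the region with the most changed CpGs. The second, chr10:12810846-12810995, lies in an intron of Plagl1 within its ICR. The third, chr11:11926332-11926348, is the part of the changed Grb10 ICR outside annotated UTRs. The other stretches show a germline promoter at Sohlh2, chr3:54986260-54986332, a coding exon of Gp5, chr16:30309095-30309237, and an intron of Lmx1a, chr1:169622478-169622562.

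Zfp316: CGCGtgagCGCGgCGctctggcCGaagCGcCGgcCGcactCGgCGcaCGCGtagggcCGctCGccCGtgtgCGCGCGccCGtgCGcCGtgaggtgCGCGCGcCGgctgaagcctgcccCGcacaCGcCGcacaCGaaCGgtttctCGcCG
Plagl1: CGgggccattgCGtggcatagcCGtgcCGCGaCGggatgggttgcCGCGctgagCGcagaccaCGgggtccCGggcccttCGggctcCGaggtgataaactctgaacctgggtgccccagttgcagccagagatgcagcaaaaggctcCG
Grb10: CGCGcttccagaaacCG
Sohlh2: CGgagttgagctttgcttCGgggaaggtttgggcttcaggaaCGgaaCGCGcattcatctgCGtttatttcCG
Gp5: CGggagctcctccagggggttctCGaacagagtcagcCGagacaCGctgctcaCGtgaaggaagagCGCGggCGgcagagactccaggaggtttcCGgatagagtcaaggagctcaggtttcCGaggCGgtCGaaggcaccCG
Lmx1a: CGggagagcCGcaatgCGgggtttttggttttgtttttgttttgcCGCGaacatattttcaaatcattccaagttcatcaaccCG

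Over the 33 compared CpGs of the Zfp316 stretch the mean level was 0.335% in OP-mESCs and 35.6% in shCtrl mESCs. Over the 14 CpGs of the Plagl1 stretch it was 4.87% and 96.1%, which is close to the full range of the assay. Regions with fewer changed CpGs could differ by more than most of those shown, as near Cyp24a1 with a difference of −66.8 points, a region named after its values were seen. The Plagl1 stretch holds the ZFP57 hexamer, TGCCGC or its complement on either strand, at 2 places, while the Zfp316 stretch holds none. The hexamer is common in such DNA and was found in 42.3% of all 1 kb windows tested and in 24.9% of those called lower. The difference between these shares was not tested, and windows with the hexamer averaged 13.2% in shCtrl mESCs against 30.6% without it, so that fewer of them could fall by 25 points. At Sohlh2 the 7 CpGs averaged 28.8% in OP-mESCs and 93.0% in shCtrl mESCs. The 13 CpGs at Gp5 averaged 1.67% and 33.9%, and the 6 at Lmx1a averaged 7.94% and 62.05%.

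OP-mESCs read lower than shCtrl mESCs across the compared CpGs. The mean level was 21.3% and 21.4% in the OP-mESC replicates and 27.6% in both shCtrl replicates. The mean difference was −6.20 points (21.4% ± 0.0632 against 27.6% ± 0.021, SD, n = 2 each), and the groups did not overlap. The exact permutation test gave a two-sided p of 0.333, the smallest that 2 against 2 libraries allow, so this value alone cannot reach 0.05. Levels of single CpGs correlated at Pearson r = 0.974 between OP-mESC replicates, 0.985 between shCtrl replicates and 0.943 to 0.947 between the groups, as a description over CpGs of 4 libraries that share their CpGs.

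The change of single CpGs ran almost wholly 1 way. Between the replicate means, 26915 CpGs (7.30%) fell by more than 25 points and 190 (0.0515%) rose by as much. For scale, the replicates of a group differed by more than 25 points, in either direction, at 7133 CpGs (1.93%) in OP-mESCs and at 3835 (1.04%) in shCtrl mESCs. With a binomial model of the reads, 24041 CpGs, 6.52% of those tested, were lower (adjusted p under 0.05, gap over 25 points), and 152, or 0.0412%, were higher. In 23915 of the CpGs called lower, both OP-mESC replicates lay below both shCtrl replicates, and the median difference of those called lower was −35.9 points. A call that needs a gap of over 25 points favours both.

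The size of the gap differed by how methylated a CpG was in mESCs outside the comparison. To avoid setting classes by the compared libraries, CpGs were grouped by their mean level in mESCs with a β-catenin shRNA (shβcat), which are in neither group. The 237314 CpGs under 20% in shβcat mESCs averaged 0.766% and 0.776% in OP-mESCs and 1.84% and 1.81% in shCtrl mESCs, and 0.273% of them were called lower. The 42435 CpGs between 20% and 80% averaged 25.1% and 25.2% in OP-mESCs against 45.1% and 44.9% in shCtrl mESCs. This intermediate class had the widest gap, 19.9 points, and 29.9% of it was called lower. The 86057 CpGs at 80% or more averaged 76.0% and 76.2% against 89.7% and 89.7%, a gap of 13.6 points, with 12.2% called lower. shβcat and shCtrl mESCs share the transduction, so that these classes follow the state of transduced cells.

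**Figure D1:**
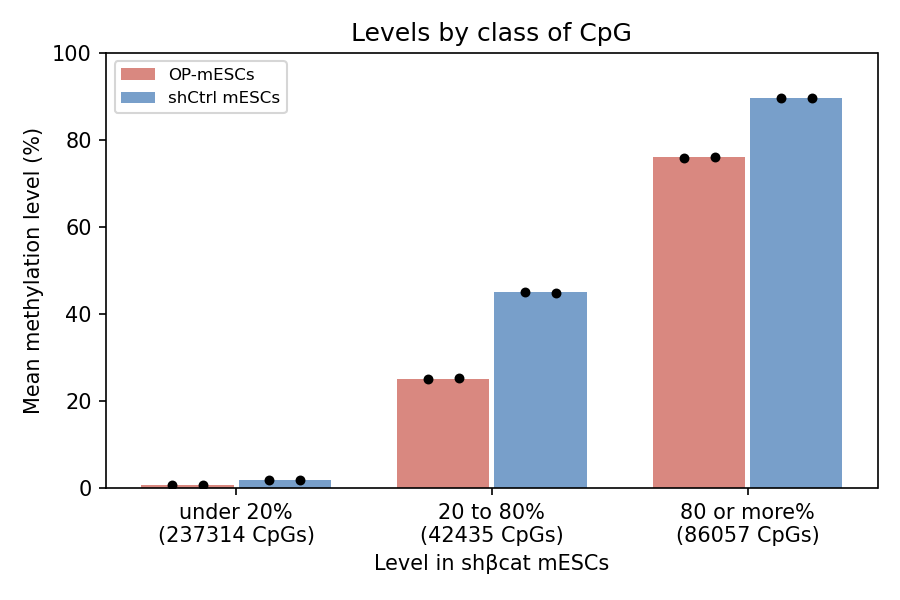
Mean methylation level (%) of OP-mESCs (red bars) and shCtrl mESCs (blue bars) over CpGs grouped by their level in shβcat mESCs, with each library as a black point (n = 2). The points of a group almost coincide, and the gap is widest, at 19.9 points, in the class between 20% and 80%.

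Fixed 1 kb windows with at least 5 compared CpGs gave a view that does not depend on where changes were found. Of 20430 windows, 837 (4.1%) were lower in OP-mESCs by the quasi-binomial test at the same thresholds, and 2 (0.00979%) were higher. Every window that differed by over 25 points also passed the adjusted p, so the size of the difference set this count. All 837 had both OP-mESC replicates below both shCtrl replicates, with a median difference of −31.2 points. A call that needs a gap of over 25 points favours that order. The windows called lower averaged 34.7% and 34.4% in OP-mESCs and 68.3% and 68.7% in shCtrl mESCs. YP-mESC replicates averaged 50.8% and 50.8% over the 836 and 793 of these windows with at least 2 of the same CpGs, and shβcat mESCs averaged 71.7% and 71.2%. YP-mESCs thus lay between the groups on average, although windows chosen for a gap between OP-mESCs and shCtrl mESCs favour such an order. Over all 20430 windows, without that choice, OP-mESCs averaged 17.4% and 17.4% and shCtrl mESCs 23.2% and 23.2%. YP-mESCs averaged 20.3% and 20.2% over the 20426 and 19657 windows they covered, again between the groups. The gap to shCtrl mESCs was thus wider than the gap to YP-mESCs.

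Windows called lower lay mostly away from CpG-rich gene starts. Within 1 kb of the start of a protein-coding gene, 118 of 11545 windows (1.02%) were called lower, and the mean level there was 2.00% in OP-mESCs and 4.74% in shCtrl mESCs. In coding exons 278 of 3518 windows (7.90%) were lower, in introns 130 of 1577 (8.24%) and between genes 263 of 2791 (9.42%). Levels in these 3 places were alike, at 39.2% to 41.7% in OP-mESCs and 49.8% to 52.1% in shCtrl mESCs. By CpG density, 29 of 7857 windows with 60 or more CpGs per kb (0.369%) were lower, against 684 of 10445 with 20 to 59 (6.55%) and 124 of 2128 with under 20 (5.83%). The shares also differed by the level in shβcat mESCs. No window under 20% in shβcat mESCs was called in either direction, while 506 of 2303 windows between 20% and 80% (21.97%) and 330 of 3614 at 80% or more (9.13%) were lower. The count of 0 among 14498 low windows follows from the threshold, as a level under 20% can hardly fall by 25 points.

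The 2 windows called higher were named after their values were seen. One, chr7:7252001-7253000, covers the start of Clcn4-2, a chloride channel gene, with 71.6% and 71.3% in OP-mESCs and 34.9% and 33.2% in shCtrl mESCs (adjusted p = 4.99e-13). The other, chr8:126366001-126367000, overlaps exons of Gm20388 and 1700054N08Rik, with 64.0% and 67.1% against 30.9% and 28.9% (adjusted p = 1.75e-07). In both, the OP-mESC replicates lay above the shCtrl replicates without overlap, which the call by size favours. The 7 CpGs at Clcn4-2 were read 2005 to 4324 times in a library, and the Clcn4-2 promoter, which holds them, could not be tested once the CpGs with the most reads were left out.

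Chromosome 13 was compared in full here, which the YP-mESC libraries do not allow, since YP-mESC replicate 2 was not analysed on it. Its 14046 CpGs averaged 23.4% in OP-mESCs and 29.8% in shCtrl mESCs, a difference of −6.46 points, and 6.81% of them were called lower. On the 18 other autosomes the mean difference ran from −7.04 points on chromosome 5 to −5.67 points on chromosome 19, and 5.99% to 8.14% of CpGs were called lower. Chromosome 13 thus lay inside the range of the other autosomes. The X chromosome fell by 6.27 points over 2439 CpGs, and no CpG of the 25 on the Y chromosome was called. Chromosome 14 stood apart in read depth only. Reads at each CpG were divided by their mean over the 4 libraries and scaled by the median ratio of each library. On this scale chromosome 14 stood at 0.847 and 0.838 in OP-mESCs and 1.13 and 1.15 in shCtrl mESCs. A low value in 1 group raises the other, so neither shows depth within a library alone. Its methylation fell by 6.22 points, close to the genome, and the part of depth in that value was not tested.

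The region rule of the study was applied in both directions. A region needed at least 10 CpGs, less than 2 kb apart, each changed by more than 25 points between replicate means. By this rule 72 regions were lower in OP-mESCs, with 987 changed CpGs, and 0 were higher. The rule has no test. In all 72 regions both OP-mESC replicates lay below both shCtrl replicates over the compared CpGs. Picking regions by their gap in these same libraries favours that order. The median level of the regions was 23.3% in OP-mESCs and 64.8% in shCtrl mESCs, and in the 69 regions where both YP-mESC libraries held at least 2 of the CpGs their median was 40.3%. Of the 72 regions, 40 touched a coding exon, 18 lay within 1 kb of a protein-coding start, 14 were intergenic and 2 overlapped an ICR. OP-mESC replicate 2 limits this count. Without OP-mESC replicate 2 the rule found 270 lower and 3 higher regions among 680859 CpGs.

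The Zfp316 exon, chr5:144014923-144016993, had the most changed CpGs of any region, 103 of the 107 compared. Its mean level was 2.45% and 2.36% in OP-mESCs and 42.5% and 42.0% in shCtrl mESCs. The difference, 39.8 points, far exceeded the spread of replicates (SD 0.0654 and 0.364), and at all 107 CpGs both OP-mESC replicates lay below both shCtrl replicates. The region was picked by this gap, which favours such an order. Means of single CpGs stayed under 10% at 102 of the 107 in OP-mESCs and exceeded 25% at 105 in shCtrl mESCs. Median depth was 40 reads a CpG in OP-mESCs and 33.5 in shCtrl mESCs. YP-mESCs read 5.09% and 4.99% over the same CpGs, close to OP-mESCs, and shβcat mESCs read 48.7% and 44.0%. The clones OP-S33Y #1 and #2, which express the stabilised S33Y β-catenin, read 3.03% and 4.72%, and 2.81% and 2.60%. High methylation at Zfp316 was thus seen in both shRNA groups and low methylation in all the untransduced and S33Y libraries named here.

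**Figure D2:**
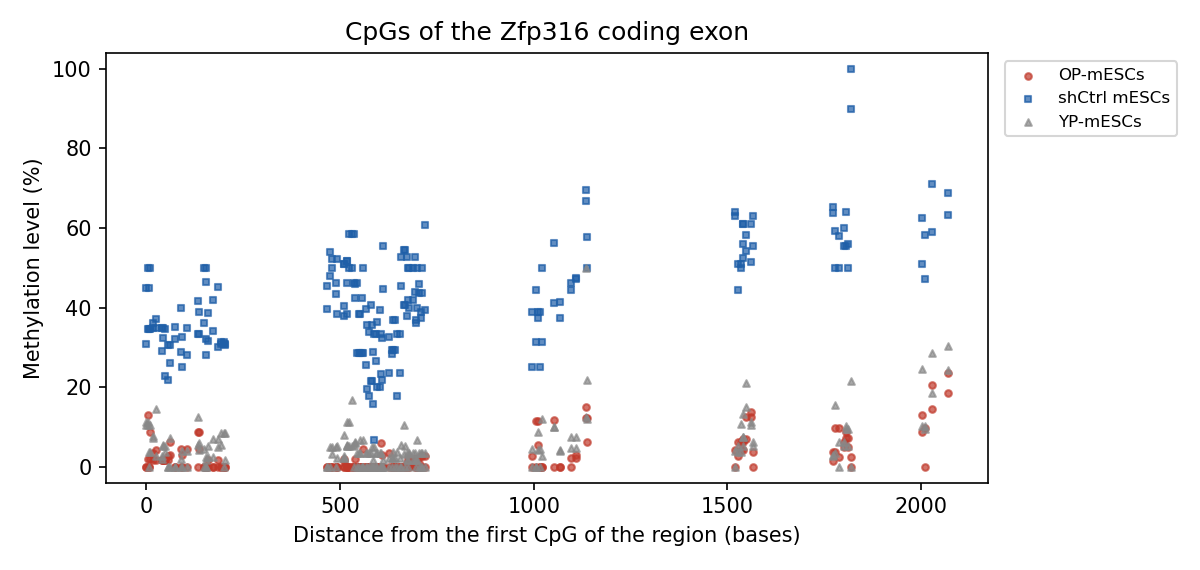
Methylation level (%) of each compared CpG in the Zfp316 coding exon against its distance in bases from the first CpG, for both replicates of OP-mESCs (red circles), shCtrl mESCs (blue squares) and YP-mESCs (grey triangles). OP-mESCs and YP-mESCs stay near the bottom, at means of 2.45% and 5.09% in replicate 1, while shCtrl mESCs average 42.5%.

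At Plagl1 and Grb10 the changed CpGs lay inside ICRs. Plagl1 encodes a zinc finger transcription factor, and its 29 changed CpGs at chr10:12810619-12810995 read 3.44% and 5.58% in OP-mESCs and 95.3% and 95.9% in shCtrl mESCs. This was the widest gap of any region, 91.1 points. It was measured from a reference above the intermediate level of a normal ICR. Over the same CpGs that each library read, shβcat mESCs were likewise high at Plagl1, at 95.8% and 96.2%. OP-S33Y #1 read 93.5% and 94.4%, and OP-S33Y #2 read 90.6% and 90.9%. YP-mESCs read 75.05% and 58.5% there. Grb10 encodes an adaptor of growth factor receptors, and its 28 changed CpGs at chr11:11925850-11926348 read 0.704% and 1.35% against 50.3% and 59.5%. YP-mESCs read 30.1% and 34.7% at Grb10, between the groups.

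B3galtl, a glycosyltransferase gene, had 27 changed CpGs at its start, chr5:150480820-150481123. It read 2.78% and 7.58% in OP-mESCs, 46.0% and 44.5% in shCtrl mESCs, and 15.6% and 24.3% in YP-mESCs. Sohlh2, a germ cell transcription factor, had 21 at chr3:54985912-54986517, with 30.4% and 24.4% in OP-mESCs against 82.0% and 81.8% in shCtrl mESCs. In both regions the replicates of OP-mESCs, and those of shCtrl mESCs, lay within 7 points of each other. YP-mESCs read 65.2% and 59.8% at Sohlh2.

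The other leading regions lay in gene bodies or at gene starts. An intron of Acnat1, an acyltransferase gene, read 36.6% and 36.2% in OP-mESCs and 63.2% and 62.3% in shCtrl mESCs at chr4:49479270-49480136. YP-mESCs read 35.9% and 32.5% at Acnat1, at or below OP-mESCs. The coding exon of Gp5, which encodes platelet glycoprotein V, read 8.62% and 8.62% against 46.9% and 44.1% at chr16:30308468-30309237. The region shared by F630110N24Rik and 4930404N11Rik, chr10:80826682-80827671, read 13.5% and 13.1% against 42.8% and 42.9%.

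At Esrrg, an orphan nuclear receptor gene, the region at its start, chr1:189429371-189432965, read 15.9% and 15.9% in OP-mESCs and 39.3% and 40.3% in shCtrl mESCs. At Lmx1a, a LIM homeodomain factor gene, chr1:169620450-169622562 read 18.5% and 22.5% against 66.8% and 61.5%. In all 10 regions the gap was wider than the spread of either group, which the choice of regions by their gap favours. The other 62 regions had 10 to 15 changed CpGs each, and fell by 3.02 to 66.8 points over all their compared CpGs. Only 2 of the 72 fell by under 10 points on average, near Pgk2 and at Ptprs, with 11 and 10 changed CpGs.

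**Figure D3:**
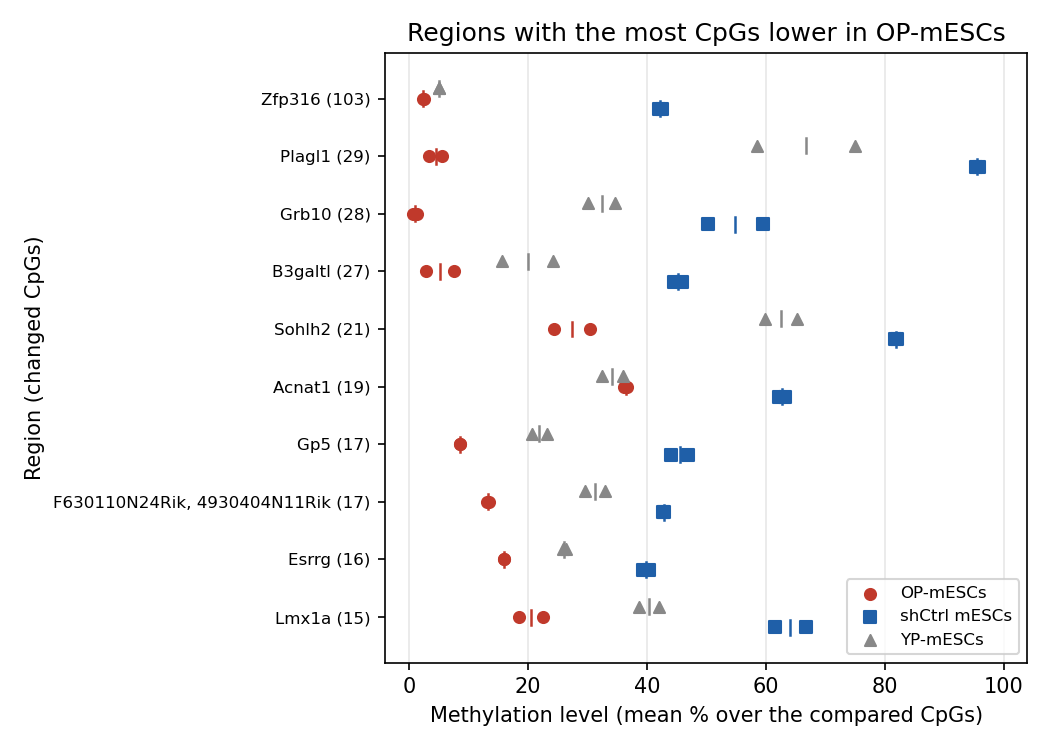
Mean methylation level (%) over the compared CpGs of the 10 regions with the most changed CpGs (number in brackets), for each library of OP-mESCs (red circles), shCtrl mESCs (blue squares) and YP-mESCs (grey triangles), with a tick at each group mean. OP-mESCs lie below shCtrl mESCs in every region, and YP-mESCs lie with OP-mESCs at Zfp316 and Acnat1.

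Of the 20 ICRs of the study's list, 12 had at least 2 compared CpGs and 5 of them were lower by the window test, with 0 higher. The background is 4.1% of all windows, most of which were unmethylated, and 21.97% of the windows between 20% and 80% in shβcat mESCs, where 10 of the 12 ICRs also lay. The other 2, Plagl1 and Trappc9, were at 80% or more. Among the 12 ICRs, 0 were higher also at an unadjusted p under 0.05, with 1 dispersion for all features, and with limma on transformed levels. The median difference of the 12 was −20.8 points, beside −2.49 points over all windows and a mean of −18 points over the windows between 20% and 80%. Of the 12, 11 read lower to some extent, but Peg3 turned to 6.10 points higher without OP-mESC replicate 2 and 2.43 points higher without shCtrl replicate 1.

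The 5 ICRs called lower were nearly unmethylated in OP-mESCs. Plagl1 (29 CpGs, adjusted p = 1.11e-17) and Grb10 (28 CpGs, adjusted p = 1.97e-13) had the values given above. The ICR of Kcnq1ot1, an antisense RNA that silences its neighbours in cis, read 0% and 1.42% in OP-mESCs and 51.4% and 37.7% in shCtrl mESCs over 3 CpGs (adjusted p = 1.4e-07). The ICR of Inpp5f, an inositol phosphatase gene, read 0% and 3.68% against 47.8% and 38.6% over 5 CpGs (adjusted p = 2.79e-07). The ICR of Impact, a regulator of translation, read 0% in both OP-mESC replicates and 40.5% and 46.3% in shCtrl mESCs over 4 CpGs (adjusted p = 6.66e-07).

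In all 5 the groups did not overlap, which the call by size favours. Few reads lie behind some of these zeros. OP-mESC replicate 2 had 0 methylated of 72 reads at Impact, which allows a level of up to 4.17%, and OP-mESC replicate 1 had 0 of 185 over all 10 CpGs it read at Kcnq1ot1, which allows up to 1.62%. These limits cover counting error only. At Kcnq1ot1 YP-mESCs read 48.9% and 45.1% over their own CpGs, and OP-S33Y #2 read 95.0% and 96.0%.

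The other 7 ICRs tested did not pass both criteria. Mest, a hydrolase gene, read 23.6% and 28.5% in OP-mESCs and 39.4% and 58.4% in shCtrl mESCs (difference −22.9 points, adjusted p = 0.000943). Commd1 read 40.5% and 32.7% against 56.4% and 54.2% (adjusted p = 4e-05), and Gnas, which encodes a G protein subunit, read 47.3% and 37.6% against 47.2% and 48.4% (adjusted p = 0.00608). Their adjusted p-values lie under 0.05 while the differences lie under 25 points, and at Gnas the groups overlapped. With limma on transformed levels the adjusted p was 0.0528 at Mest, 0.0167 at Commd1 and 0.311 at Gnas. Without OP-mESC replicate 2 the difference at Commd1 was −8.64 points in place of −18.7. At Mest it was −13.4 points without shCtrl replicate 2, and at Gnas −10.2 points without OP-mESC replicate 1. Mest passed the 25 points as well when OP-mESC replicate 2 (−25.4) or shCtrl replicate 1 (−32.4) was left out.

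Meg3, with 22.8% and 37.3% against 39.8% and 48.0%, had an adjusted p of 0.0674, and of 0.0403 with the replicate number as a block. Its difference of −13.9 points became −6.61 without OP-mESC replicate 1 and −21.1 without OP-mESC replicate 2, under 25 points each time. Snrpn read 27.1% and 46.5% against 41.0% and 56.3% over 2 CpGs, and Peg3 read 54.7% and 32.1% against 56.3% and 41.0% over 5. The groups overlapped at Snrpn and Peg3 but not at Meg3. Trappc9 was high in every library, at 100% and 95.6% against 98.2% and 96.2%, and its difference of 0.566 points lay within the spread of replicates.

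A further 6 ICRs were read in OP-mESC replicate 1 and not, at 2 or more CpGs, in replicate 2. Over the CpGs of each library, OP-mESC replicate 1 read 0% at Gpr1, 0.296% at H13, 0.287% at Peg10 and 1.67% at Igf2r. The shCtrl replicates read 64.8% and 58.96% at Gpr1, 36% and 40.04% at H13, 48.8% and 44.3% at Peg10, and 56.7% and 49.4% at Igf2r. All 4 were thus close to unmethylated in the only OP-mESC library that read them. Nnat read 4.36% in OP-mESC replicate 1 against 90.7% and 91.3%, and Herc3 read 22.6% against 90.3% and 94.2%. In shCtrl mESCs both thus lay above the intermediate level of a normal ICR. At Herc3 YP-mESCs read 55.2% and 46.7%, OP-S33Y #1 49.2% and 40%, and OP-S33Y #2 58.4% and 48.9%. Only shβcat mESCs were as high there, at 94.6% and 95.1%. At Nnat YP-mESC replicate 2 read 72.8%, and OP-S33Y #2 read 84.2% and 83.3%.

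In the fit without OP-mESC replicate 2, 12 of 18 ICRs were called lower, namely the 5 above, these 6 and Mest. That fit assumes that the lone library would vary as the shCtrl replicates do. H19 and Rasgrf1, both methylated on the paternal allele, were read in neither OP-mESC library at 2 or more CpGs, and no statement on them can be made.

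**Figure D4:**
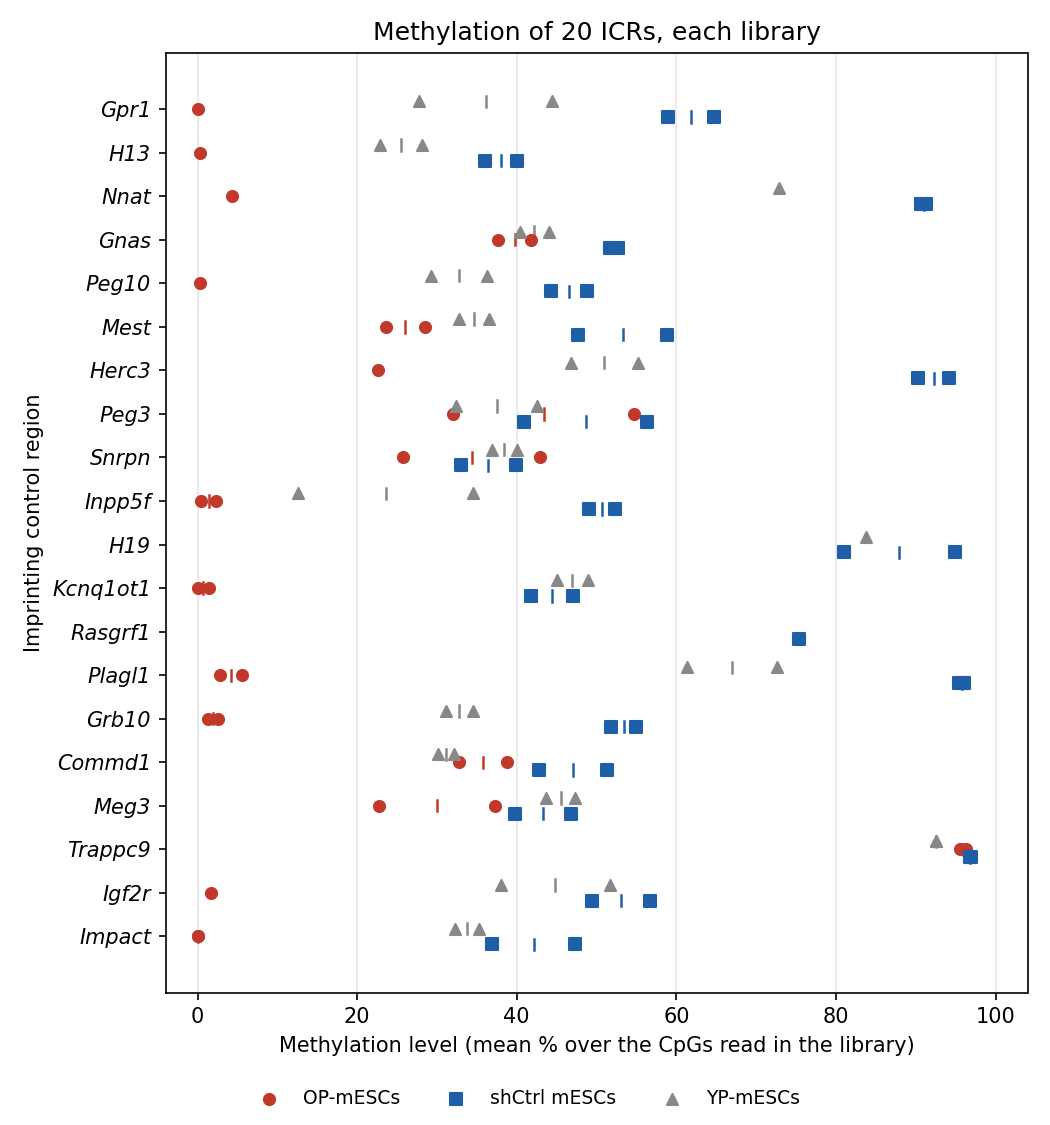
Methylation level (mean % over the CpGs read in each library) of the 20 ICRs, for each library of OP-mESCs (red circles), shCtrl mESCs (blue squares) and YP-mESCs (grey triangles), with a tick at the mean where both replicates have a value. OP-mESCs sit under 6% at 10 ICRs, among them Impact and Gpr1, while Trappc9 stays above 92% in every library shown.

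At promoters, taken as 1000 bases before to 500 after the annotated start with at least 5 compared CpGs, 67 of 8930 (0.75%) were lower and 1 (0.0112%) was higher. Most promoters had little to lose, as 8623 were under 20% in shCtrl mESCs. Among the 323 promoters at 20% or more in shβcat mESCs, 66 (20.4%) were lower. A fall of any size passed the adjusted p at 4016 promoters and a rise at 3, although the median difference over all promoters was only −1.20 points. The promoter calls depended on the fit. Without shCtrl replicate 1 only Plagl1 kept its call (adjusted p = 0.0318), and none did with the replicate number as a block, where 67 lower and 1 higher still passed at an unadjusted p under 0.05.

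The promoter with the widest fall was that of Plagl1. Plce1, which encodes phospholipase C epsilon, read 6.18% and 2.51% in OP-mESCs and 68.3% and 71.8% in shCtrl mESCs (adjusted p = 0.0034). Magohb, an exon junction complex gene, read 24.4% and 15.7% against 80.7% and 81.0%. Hist1h2ba and Hist1h2aa, the testis histone genes of chromosome 13, share 1 promoter and the same 7 CpGs, which read 17.4% and 22.04% against 78.2% and 71.2%. Sohlh2 followed with 28.9% and 22.1% against 79.9% and 79.96%. All of these had an adjusted p under 0.005.

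The next promoters by size were those of Dcc, a netrin receptor gene (28.8% and 13.6% against 70.8% and 74.7%), Naa11, an acetyltransferase gene (15.9% and 21.8% against 72.1% and 67.7%), and Snap25, a synaptic SNARE gene (9.89% and 13.7% against 61.4% and 61.6%). Atf7ip, a cofactor of the histone methyltransferase SETDB1, read 46.6% and 35.6% against 86.7% and 93.0%. YP-mESCs read 35.7% and 28.9% at Atf7ip, near or below OP-mESCs. At Naa11 they read 22.4% and 23.3%, just above OP-mESCs, and at Plce1 57.5% and 35.5%, between the groups. They read 35.9% and 31.5% at Dcc and 23.7% and 21.9% at Snap25, between the groups but nearer to OP-mESCs. The promoter of Clcn4-2, which holds the window described above, was the only one called higher.

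Promoters of germline genes, which DNA methylation silences in somatic and stem cells, held 3 of the lower calls among the 11 measured of 33 listed, against 0.75% of all promoters. The genes were Sohlh2, Sycp3 and Tdrd1. Sycp3, of the synaptonemal complex, read 17.7% and 15.9% in OP-mESCs and 57.4% and 65.4% in shCtrl mESCs (adjusted p = 0.0035). Tdrd1, of the piRNA pathway, lay just past the threshold with 25.2% and 13.1% against 45.1% and 43.5% (adjusted p = 0.00651). Of the 11 promoters, 10 were at 20% or more in shβcat mESCs, and 3 of 10 is to be read against the 20.4% of all promoters at that level.

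Of the other 8 germline promoters, 5 passed the adjusted p with a fall under 25 points and 3 did not pass it (Tex101, Smc1b and Ddx25). Slc25a31, a nucleotide carrier of the testis, read 45.9% and 48.6% against 70.7% and 68.6%, and Sycp1 read 28.4% and 37.6% against 57.7% and 50.8%. Ddx4, the germ cell RNA helicase, read 8.62% and 6.23% against 23.2% and 22.6%, and Mael read 14.7% and 9.72% against 27.98% and 28.99%. In each of these 4 the groups did not overlap. The share of all promoters without overlap was not counted, but 4016 of 8930 passed the adjusted p with a fall of any size. The median over the 11 was −20.0 points.

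Promoters of pluripotency genes were unmethylated in all 4 libraries, and methylation alone does not show whether the genes were expressed. Of 21 listed, 9 were measured, all were under 3% in every library, and 0 were called by the quasi-binomial test, with 1 shared dispersion or with limma. At an unadjusted p under 0.05, 2 of the 9 differed, where 4671 of all 8930 promoters did. Sox2 read 0% and 0.624% in OP-mESCs against 0.543% and 0% in shCtrl mESCs, and Klf4 read 0.289% and 0.375% against 0.391% and 0.47%. Utf1 read 0.284% and 0.516% against 1.87% and 2.67%, a fall of any size that passed the adjusted p (0.0247).

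Of the lineage transcription factors, 15 of 26 listed were measured, 1 was lower and 0 were higher, against 0.75% lower among all promoters. At 20% or more in shβcat mESCs the list had 4 promoters with 1 lower, against 20.4% of all such promoters. Hand1, a factor of heart and trophoblast, read 18.8% and 23.4% in OP-mESCs, 57.7% and 50.3% in shCtrl mESCs (adjusted p = 0.00403) and 17.6% and 22.7% in YP-mESCs. shβcat mESCs read 58.7% and 52.5% at Hand1, so that both shRNA groups were high there. Nkx2-1, a lung and forebrain factor, went the other way, with 21.3% and 19.6% against 4.06% and 4.42% (adjusted p = 0.00399), and did not reach 25 points. En1 read 5.94% and 2.72% against 23.6% and 25.2%, Nkx2-5 read 28.2% and 17.9% against 37.7% and 46.3%, and Sox17 read 12.8% and 10.6% against 24.7% and 19.7%. The median over the 15 was −2.22 points. By both other tests 1 was lower and 0 were higher.

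Wnt pathway promoters were nearly unmethylated. Of 33 listed, 25 were measured, all under 20% in both groups, and 0 were called by any of the 3 tests. At an unadjusted p under 0.05, 14 of the 25 differed, and 13 fell by under 25 points with an adjusted p under 0.05, beside 4671 and 4016 of all 8930 promoters by the same criteria at any size. The widest gap was at Lgr5, which encodes an R-spondin receptor, with 2.07% and 2.72% in OP-mESCs, 15.7% and 16.8% in shCtrl mESCs (adjusted p = 0.00399) and 0.961% and 0.616% in YP-mESCs. Tcf7 read 3.86% and 4.62% against 10.2% and 10.7%, Axin2 read 0.322% and 0.32% against 3.64% and 2.20%, and Lrp6 read 0.558% and 0.397% against 3.09% and 2.90%. In these 4 genes the shCtrl replicates lay above the OP-mESC replicates, and the share of all promoters without overlap was not counted. Other members did not fall, as Lef1 with 0.568% and 0.382% against 0.157% and 0%. The median difference over the 25 was −1.20 points, as over all promoters.

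Promoters of genes that set or keep methylation and imprints were also low. Of 18 listed, 8 were measured, all under 4% in every library, and 0 were called by any of the 3 tests. At an unadjusted p under 0.05, 6 of the 8 differed, beside the 4671 of 8930 promoters in all. Dnmt1, the maintenance methyltransferase, read 0% and 0.0668% in OP-mESCs against 2.06% and 1.02% in shCtrl mESCs, and Dnmt3b read 0.0649% and 0.0853% against 0.699% and 0.83%. Tet3, which oxidises methylcytosine, read 0.162% and 0% against 1.08% and 2.09%. These differences are of the size seen over all low CpGs.

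Of the 8 neuronal cytoskeleton promoters, all measured, 0 were called by any of the 3 tests and 2 differed at an unadjusted p under 0.05, as did 4671 of all 8930 promoters. Nefm, the medium neurofilament chain, read 4.44% and 8.53% in OP-mESCs, 24.7% and 25.3% in shCtrl mESCs (adjusted p = 0.00399) and 43.0% and 44.3% in YP-mESCs. At Nefm shCtrl mESCs lay between OP-mESCs and YP-mESCs. Tubb3 read 0.226% and 0.183% against 4.66% and 4.09%, while Nefl and Nefh stayed under 2% in every library.

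**Figure D5:**
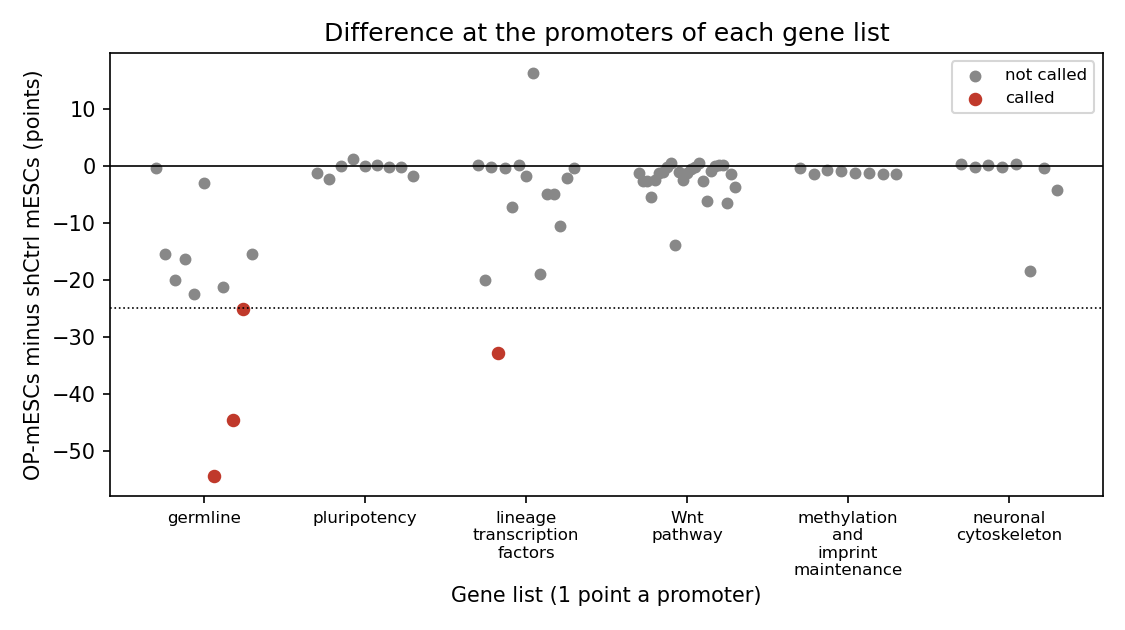
Difference in promoter methylation (OP-mESCs minus shCtrl mESCs, percentage points) of each measured gene of 6 lists, with called promoters in red, the others in grey and a dotted line at the 25-point threshold. Germline promoters spread downwards to −54.4 points, while pluripotency promoters stay within 3 points of 0 and Nkx2-1 lies above 0 at 16.2.

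The study's own regions of change on chromosome 13 were read last. They were chosen on the same OP-mESC libraries against YP-mESCs, so their direction here is not independent evidence and is given as a description. All 7 were lower in OP-mESCs than in shCtrl mESCs and 6 fell by over 25 points. Hist1h2ba read 17.6% and 22.8% against 82.1% and 79.2%, and Gm11379 read 21.1% and 18.4% against 72.6% and 72.8%. Zfp169, a zinc finger gene, read 12.8% and 14.8% against 48.9% and 45.0%. None of these groups overlapped.

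Gm10320 read 43.7% and 52.9% in OP-mESCs and 74.3% and 82.6% in shCtrl mESCs. 2810429I04Rik read 17.7% and 3.60% against 39.8% and 37.5%, and F2r, a thrombin receptor gene, read 9.43% and 5.78% against 31.4% and 38.4%. Rnf44, a RING finger gene, read 11.1% and 8.99% against 15.9% and 17.5%, with 38.4% in YP-mESC replicate 1. At Rnf44 the fall against shCtrl mESCs, 6.62 points, was thus far smaller than the gap to YP-mESC replicate 1. By the region rule, 3 of the 72 regions lay on chromosome 13, near Foxf2, near Foxc1 (the Gm11379 region) and at Irx4.

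Over all 107 regions listed as lower, also chosen for low levels in these OP-mESC libraries, 98 had at least 2 compared CpGs. All 98 were lower here, which that choice favours, with a median difference of −25.5 points and 52 past 25 points, beside a mean of −18 points over windows between 20% and 80% in shβcat mESCs. The 3 regions it listed as higher gave mixed values. Nkx2-1 read 21.4% and 20.3% in OP-mESCs against 4.25% and 4.40% in shCtrl mESCs. Repin1, a replication initiator gene, read 64.9% and 53.8% against 59.95% and 60.2%, and Gm11846 read 76.2% and 79.0% against 75.8% and 84.4%. The groups overlapped at Repin1 and Gm11846, where YP-mESCs read 41.7% and 31.2% and 50.0% and 43.5%.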

How the data were processed

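RRBS libraries of OP-mESCs and shCtrl mESCs (2 each) were compared. Per the labels, libraries were made with a NuGEN Ovation kit and processed with CASAVA 1.8.2, Trim Galore 0.2.8 and Bismark 0.7.9 on mm9. The authors deposited, for each cytosine of a CpG, an unnormalized count of reads and the percent of them methylated. Handling of duplicates is not given in the sources used here, so reads may not all be independent molecules. The files hold no cytosine under 10 reads, where a level moves in steps of 10 points.

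Methylated reads were recomputed and strands summed. At 18445 checked CpGs the mm9 reference read CG at 100%. CpGs with 10 or more reads in all 4 libraries were tested with a binomial model and an overdispersion shared by all CpGs (1.25). Windows and ICRs in 1 table, and promoters in another, were tested by a quasi-binomial F test with dispersions moderated by limma 3.58.1 (R 4.3.3), with Benjamini-Hochberg adjustment in each table. The prior was fitted on features between 10% and 90%. Regions followed the study's rule. ICR and study region coordinates came from its supplement, genes from GENCODE on mm9, and older symbols from RefSeq names. One listed gene was not matched. The tests were run on simulated data for this comparison, with changes of 40 points. They recovered 79% of 200 changed CpGs among 73777 and 99.5% of 200 windows among 20430, with 3 and 0 false calls. All other simulated features had no shift between the groups, so the rate of false calls in these data was not measured. Python 3.11.15, numpy 2.4.6 and scipy 1.17.1 were used. Alternatives covered read minimums, each library left out, strands, chromosomes, tests and thresholds. The members and lists were chosen with earlier results of these data known. Named were all ICRs, the 10 regions lower (and up to 10 higher) with the most changed CpGs, the 10 promoters lower and 5 higher by size, called list members with up to 4 others a list, and the study's chromosome 13 regions. The 4 embryoid body libraries were not used.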

Additional observations from a re-analysis of the deposited data

How the results depend on the processing

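Over 18 alternatives, 96 of 129 recomputed counts and means stayed within the limits set for them and 33 moved. Only the mean difference could be labelled reversed, and it never was. Of 142 values of single ICRs, 139 kept their side of the threshold of 25 points, and Mest passed in the other 3. The values under a difference over 10 points were still held against 25 points, so they repeat the main result and could not move. At over 10 points, Mest (−22.9 points, adjusted p = 0.000943) and Commd1 (−18.7 points, adjusted p = 4e-05) would also pass by the quasi-binomial test. The 5 ICRs called lower passed wherever they were tested, and Inpp5f and Impact were not tested at a minimum of 20 reads. That minimum gave a mean difference of −6.07 points, 13560 CpGs lower and 71 higher, and 19 regions, 313 windows and 33 promoters lower. Without the CpGs that had the most reads, 1 window and 0 promoters were higher, and the Clcn4-2 promoter was not testable. With strands kept apart the mean difference was −6.02 points, with 158 regions lower and 1 higher. With a difference over 10 points, 42369 CpGs, 4141 windows and 410 promoters were lower, and 15 windows and 2 promoters higher. At least 5 changed CpGs gave 637 regions lower and 3 higher, a change in every replicate gave 26 lower, and at least 10 CpGs per window gave 99 windows lower and 0 higher.

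Deviations of libraries with the same replicate number did not correlate over CpGs (r = 0.000414). Read sampling enters these deviations, so this does not show whether such libraries shared a preparation. With the replicate block, 24425 CpGs were lower and 156 higher, 837 windows were lower and 2 higher, and 0 promoters were called in either direction, in a fit with 1 residual degree of freedom.

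Leaving out 1 library at a time gave 18815 to 29220 CpGs lower and 125 to 272 higher, 72 to 270 regions lower and 0 to 3 higher, 888 to 1788 windows lower and 2 to 6 higher, 5 to 12 ICRs lower, and 1 to 137 promoters lower and 0 to 2 higher, with mean differences of −6.23 to −6.21 points. The upper ends for regions, windows, ICRs and promoters came without OP-mESC replicate 2, which read the fewest CpGs, and 1 promoter was lower without shCtrl replicate 1.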

Other observations

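Relative read depth set some chromosomes apart. Over 12 libraries, chromosome 14 stood at 0.818 and 0.817 in OP-mESCs, 0.913 and 0.910 in YP-mESCs, and 1.10 and 1.11 in both shCtrl and shβcat mESCs. Chromosome 1 stood at 0.810 and 0.816 in YP-mESCs and 0.810 and 0.803 in OP-S33Y #2, against 1.13 and 1.09 in OP-mESCs and 1.13 and 1.16 in shCtrl mESCs. Their part in any methylation difference was not tested.

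At the ICR of Gnas, OP-S33Y #2 read 92.8% and 93.8% over its own CpGs, and at Peg10 it read 0.245% and 0.556%. By contrast, shCtrl mESCs read 52.7% and 51.7% at Gnas and 48.8% and 44.3% at Peg10. OP-S33Y #1 read 49.8% and 43.8% at Gnas, and 43.2% at Peg10 in replicate 1, the only one that read it.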
